A study of Mus musculus with 93 samples.

Results

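The comparison described here is between the livers of inbred mouse strains grouped by the liver steatosis the study saw on a western diet. It was made in the mice that never received that diet. Members were the mice on control diet (CD), 45 of the 93 mice in the series. The 21 CD mice of C57BL/6J (n = 8), 129S1/SvImJ (n = 7) and PWK/PhJ (n = 6), called the susceptible strains, were set against the 24 CD mice of DBA/2J (n = 6), A/J (n = 5), WSB/EiJ (n = 6) and CAST/EiJ (n = 7), called the resistant strains. These are working names for the 2 groups, since the strains of each group differed among themselves in liver disease. All mice were male, and the labels name no transgene or targeted allele. All were kept at 30°C from 6 weeks of age, and from 7 weeks they ate CD (10% of calories from fat) or a western diet (WD, 40% of calories from fat). C57BL/6J, 129S1/SvImJ, DBA/2J and A/J are classical laboratory strains, and PWK/PhJ, WSB/EiJ and CAST/EiJ are wild-derived. The CD mice were controls of the same experiment, not the WD mice at an earlier time, so "before disease" here means without the diet. The strain was the unit: each strain gave 1 mean, and 3 means were compared with 4.

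The liver makes fatty acids and cholesterol from acetyl-CoA, burns fatty acids in mitochondria under the control of the nuclear receptor PPARα, and secretes lipoproteins and most plasma proteins, complement and acute phase proteins among them. Fatty liver appears when the entry and synthesis of fat exceed its oxidation and export. Scar-associated macrophages that express Gpnmb, Trem2 and Mmp12, together with fibrillar collagen, mark the later inflammatory and fibrotic stages.

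Between 40020424 and 49843859 reads per CD mouse (median 47221423) were counted on genes, and 18003 genes had enough reads to be tested. The share of unmapped reads was 3.43 ± 1.16% (SD, n = 3 strain means) in the susceptible strains and 6.01 ± 3.64% (n = 4) in the resistant strains (two-sided exact permutation p = 0.343). The highest share was that of CAST/EiJ (10.8%). Reads of every strain were aligned to the C57BL/6J genome, and the part of this in the differences was not tested. The RNA integrity number was 8.72 ± 0.188 and 8.84 ± 0.153 (exact permutation p = 0.457). With 3 means against 4 the smallest p this test can give is 0.0571. As a check of the strain labels, Nnt, which carries a deletion in C57BL/6J, was lowest in C57BL/6J (65.4 ± 8.45 CPM, counts per 1000000 counted reads, SD, n = 8, against 89.5 to 174 CPM in the means of the other 6 strains), and Hc, which is defective in A/J and DBA/2J, had its lowest means in A/J (211 CPM) and DBA/2J (337 CPM).

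Not every CD liver was free of fat or of disease markers. By the study's histology, 129S1/SvImJ livers held more fat on CD than those of any other strain. In C57BL/6J, 3 of the 8 mice stood apart. Gpnmb, a glycoprotein of lipid-laden macrophages, was at 176, 7.75 and 4.49 CPM in these mice, against at most 1.4 CPM in the other C57BL/6J mice and at most 1.37 CPM in the 37 mice of the other strains. Mmp12, a macrophage elastase, was at 67.7, 20.6 and 5.89 CPM, against at most 1.78 CPM in the 37 mice. Col1a1, the main fibrillar collagen chain, was at 88.7, 20.4 and 16.4 CPM, against 1.52 to 7.61 CPM. Lcn2, an acute phase protein, was at 42.6, 17.3 and 13.6 CPM in these mice, against 2.35 to 3.99 CPM in the other C57BL/6J mice. Across strains Lcn2 did not single them out, since its highest value was in another strain (65.2 CPM). Each comparison was repeated without these 3 mice. The 14 markers of lipid-associated macrophages and monocytes summed to between 109 and 1157 CPM (median 201 CPM) per mouse in the susceptible strains and 74.2 to 189 CPM (median 120 CPM) in the resistant strains. The strain means did not part the classes. They were 423.8 CPM in C57BL/6J, 225.1 CPM in PWK/PhJ and 125.3 CPM in 129S1/SvImJ, against 164.7 CPM in DBA/2J, 138 CPM in A/J, 101.4 CPM in WSB/EiJ and 91.7 CPM in CAST/EiJ. The 9 hepatocyte markers were high in every mouse, with sums of 104850 to 222420 CPM.

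**Figure D1:**
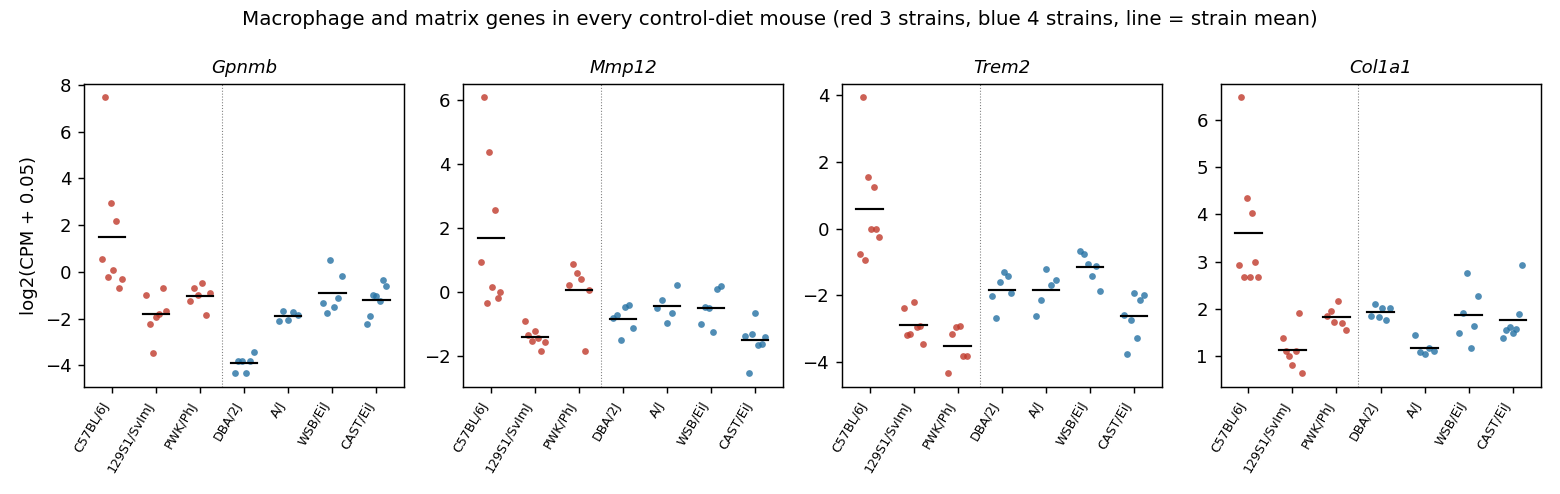
Level of 4 macrophage and matrix genes in each of the 45 CD mice, as log2(CPM + 0.05) on the vertical axis, by strain on the horizontal axis. Red points are mice of the 3 susceptible strains, blue points mice of the 4 resistant strains, and lines the strain means. The highest points of Gpnmb, Mmp12 and Col1a1 are C57BL/6J mice, where the 3 highest Gpnmb values are 176, 7.75 and 4.49 CPM.

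The first question was whether any gene set all 3 susceptible strains apart from all 4 resistant strains. A gene was called separated when every strain mean (of log2 CPM) of one class lay above every mean of the other. By strain means, 461 genes (2.56% of those tested) were separated with higher levels in the susceptible strains and 476 (2.64%) with lower levels, together 937 or 5.2%. A gene with this pattern reaches the smallest exact permutation p of 0.0571 and no less. That p is also the share of genes separated in either direction, on average, when class labels are dealt to the strains at random. The observed 5.2% did not exceed this share, so the count of separated genes alone does not set the classes apart. Most separations were narrow. The gap between the nearest strains of the 2 classes had a median of 0.067 on the log2 scale, was below 0.1 for 585 genes, and was 0.5 or more for 55. When all mice were required not to overlap, 5 genes (0.0278%) were higher and 9 (0.05%) lower in the susceptible strains, 3 of the 14 being gene models without a name. Without the 3 C57BL/6J mice, 898 genes were separated, and 770 of the 937 were separated in the same direction.

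A test that used the spread between strains called 1 gene. With limma's moderated test on the 7 strain means and Benjamini–Hochberg adjustment, no gene was called higher (0%) and 1 was called lower (0.00555%) in the susceptible strains. At an unadjusted p below 0.05 there were 301 higher and 353 lower genes, and the next smallest adjusted p was 0.0905. The call was the same with edgeR's quasi-likelihood test on counts summed per strain, which also found 1 lower gene, while DESeq2's Wald test on the same sums called 36 higher and 59 lower. When mice were treated as independent within strains, limma-voom called 4857 genes (27%) higher and 4379 (24.3%) lower. That test asks whether these 7 strains differ on average, not whether susceptible strains in general do. Mice of 1 strain resembled each other, with a correlation within strains of 0.616.

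The gene called at strain level was H2-Ea-ps (ENSMUSG00000036322, GRCm38 chromosome 17, 34341959 to 34344645, minus strand). It encodes the α chain of the MHC class II molecule H2-E and is annotated as a pseudogene because C57BL/6J, the reference strain, does not express it. Mean levels were 0.00749 ± 0.0148 CPM (SD, n = 8) in C57BL/6J, 0.00291 ± 0.00771 CPM (n = 7) in 129S1/SvImJ and 0.0168 ± 0.0198 CPM (n = 6) in PWK/PhJ, which came from 0 to 2 reads per mouse. In the resistant strains they were 20.9 ± 4.04 CPM (n = 6) in DBA/2J, 21.4 ± 6.84 CPM (n = 5) in A/J, 8.88 ± 1.67 CPM (n = 6) in WSB/EiJ and 17.9 ± 1.74 CPM (n = 7) in CAST/EiJ, from at least 303 reads per mouse. The classes did not overlap, and WSB/EiJ was the lowest of the strains that expressed it. The fitted difference was -8.32 ± 0.36 (log2, SE, adjusted p = 0.000928, limma on strain means). Its size depends on the count added before taking logarithms, since the susceptible strains had almost no reads.

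H2-Ea-ps had neighbours with the same direction. On chromosome 17 from 33940660 to 35359972, a span that holds part of the MHC, 8 of the 91 tested genes were separated lower. They were Wdr46, Rxrb, H2-Ea-ps, C4a, Stk19, C2, Gm18734 and H2-Q3. In an overlapping span 5 of 112 tested genes were separated higher. Over all tested genes 2.64% were separated lower and 2.56% higher. The span was drawn around these separated genes, so its count is not a result about the MHC. Spans on chromosome 9 (8 of 47 tested) and chromosome 12 (8 of 56 tested) held as many lower genes. C4a, a copy of complement component C4, had means of 15.4 ± 14.7 CPM in C57BL/6J (SD, n = 8), 59 ± 27.2 CPM in 129S1/SvImJ (n = 7) and 14.3 ± 1.7 CPM in PWK/PhJ (n = 6). The resistant strains had 727 ± 118 CPM in DBA/2J (n = 6), 363 ± 41.3 CPM in A/J (n = 5), 391 ± 124 CPM in WSB/EiJ (n = 6) and 287 ± 42.3 CPM in CAST/EiJ (n = 7). The highest susceptible mouse (108 CPM) was below the lowest resistant mouse (198 CPM). The difference was -4.34 ± 0.59 (log2, adjusted p = 0.417, limma on strain means). C4a shares much of its sequence with C4b, so how the reads were divided between the 2 copies is uncertain. Among all separated genes, 49.5% of those higher and 52.5% of those lower had another separated gene of the same direction within 1 Mb, against 45.6% and 45.9% of all tested genes.

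Among the named genes that separated every mouse, Itpripl1, Tmem181a, Isoc2b, Mtmr11 and Pcdh17 were higher in the susceptible strains. Itpripl1 was at 10.6 to 12.2 CPM in the susceptible strain means and 3.5 to 4.41 CPM in the resistant ones, and individual mice ranged from 7.52 to 16 and from 2.51 to 6.41 CPM. It had one of the 2 next smallest adjusted p-values (difference 1.49 ± 0.14, adjusted p = 0.0905, limma on strain means). Tmem181a was at 5.04 to 6.31 CPM against 1.41 to 2.26 CPM, a difference of 1.57 ± 0.23. The 2 classes were thus compact for both genes, with all susceptible strains at nearly one level and all resistant strains at another. Isoc2b, which encodes an isochorismatase domain protein, formed steps instead: 17.7 ± 1.35 CPM in PWK/PhJ (SD, n = 6), 9.5 to 10.1 CPM in the other susceptible strains, 3.99 and 3.52 CPM in DBA/2J and WSB/EiJ, and 0.614 and 0.473 CPM in A/J and CAST/EiJ. Pcdh17, a protocadherin of cell adhesion, was at 2.62 to 3.82 CPM against 0.0822 to 1.37 CPM. Mtmr11, of the myotubularin family, ranged from 1.83 CPM in 129S1/SvImJ to 8.41 CPM in PWK/PhJ, against 0.414 to 1.06 CPM, and its highest resistant mouse (1.32 CPM) nearly met its lowest susceptible mouse (1.35 CPM).

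The named genes lower in every susceptible mouse were, besides H2-Ea-ps and C4a, Atp8b5, Serpina1b, Serpina3m and Cpb2. The last 3 are plasma proteins made by hepatocytes. Serpina1b, a copy of α1-antitrypsin, was at 4067 to 4352 CPM in the susceptible strain means and 6376 to 7800 CPM in the resistant ones, a difference of -0.72 ± 0.22 (log2). Serpina3m, another serine protease inhibitor, was at 239 to 372 CPM against 454 to 756 CPM, and Serpina3n beside it on chromosome 12 was separated too, at 424 to 656 CPM against 772 to 1751 CPM. Both belong to families of near-identical copies, so their single values are uncertain. Cpb2, a plasma carboxypeptidase that slows clot lysis, owed most of its difference to PWK/PhJ, at 49.1 ± 2.91 CPM (SD, n = 6) against 281 and 290 CPM in the other susceptible strains and 393 to 449 CPM in the resistant strains. Atp8b5, a phospholipid flippase, was at 1.1 to 2.9 CPM against 5.35 to 16.6 CPM. At strain level the adjusted p was 0.974 for each of these 4 (limma on strain means).

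**Figure D2:**
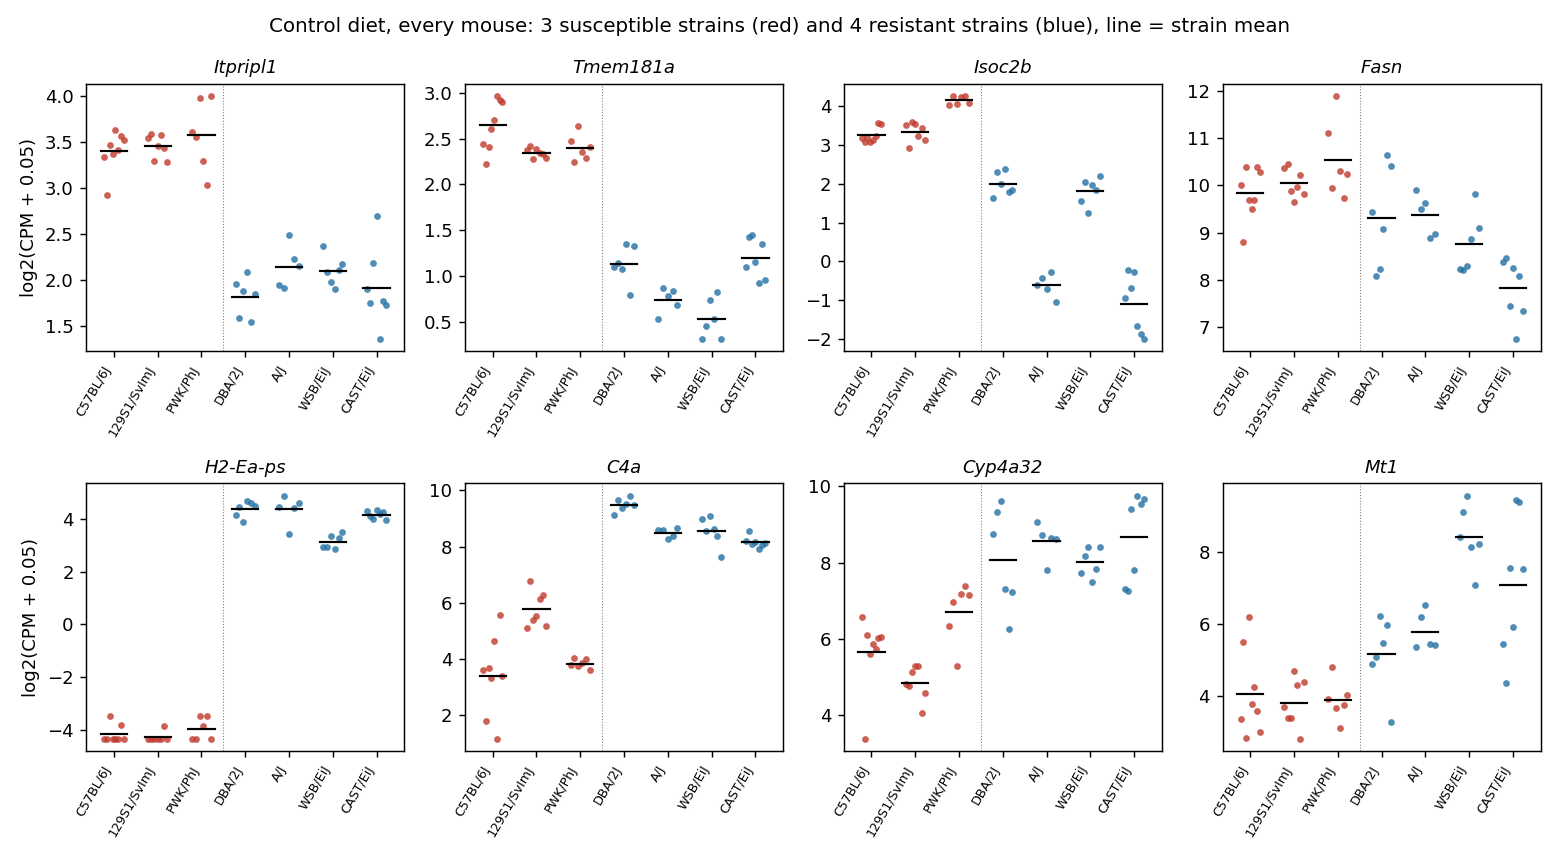
Level of 8 genes in each CD mouse, as log2(CPM + 0.05) on the vertical axis, by strain on the horizontal axis. Red points are mice of the 3 susceptible strains, blue points mice of the 4 resistant strains, and lines the strain means of these values. Mice of the 2 classes do not overlap for Itpripl1, Tmem181a, Isoc2b, H2-Ea-ps and C4a, and overlap for Fasn, Cyp4a32 and Mt1, whose strain means are separated.

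Genes for making lipid stood higher in the susceptible strains. In cholesterol synthesis all 20 genes had a higher mean in the susceptible strains, with a median difference of 0.70 (log2) against 0.01 over all genes. Of the 20, 5 (25%) were separated, all higher, against 2.56% of all genes, among them Mvk, Fdps, Nsdhl and Acat2. The mouse-level test called 17 of the 20 higher and none lower, against 27% and 24.3% of all genes. The strain-level test called none. In fatty acid synthesis 16 of 21 genes had a higher mean (median 0.54), and Acly, Fasn and Me1 (14.3%) were separated higher. Abca1, the cholesterol exporter, was separated lower. Members of a pathway vary together within a mouse, so these counts do not stand for that many independent genes.

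Fasn encodes fatty acid synthase, the enzyme that builds palmitate. Its means were 975 ± 325 CPM in C57BL/6J (SD, n = 8), 1083 ± 228 CPM in 129S1/SvImJ (n = 7) and 1721 ± 1134 CPM in PWK/PhJ (n = 6). In the resistant strains they were 794 ± 559 CPM in DBA/2J (n = 6), 690 ± 205 CPM in A/J (n = 5), 471 ± 234 CPM in WSB/EiJ (n = 6) and 244 ± 95.4 CPM in CAST/EiJ (n = 7). Individual mice overlapped widely, from 445 to 3823 CPM and from 108 to 1601 CPM, and the difference of 1.33 ± 0.40 did not pass the adjusted test (adjusted p = 0.974, limma on strain means). Me1, the malic enzyme that supplies NADPH for fatty acid synthesis, was at 246 to 462 CPM against 71 to 206 CPM (difference 1.44 ± 0.37). Acly, which makes cytosolic acetyl-CoA, was separated by a gap of 0.04 in log2 means only, since its CPM mean in DBA/2J (553 CPM) was above those of C57BL/6J (468 CPM) and 129S1/SvImJ (525 CPM). Fdps, which makes farnesyl diphosphate, ran from 17.8 CPM in PWK/PhJ to 0.708 CPM in CAST/EiJ, and its DBA/2J mean of 6.51 CPM was just below the 6.78 CPM of 129S1/SvImJ. The means of the 2 classes thus nearly touched for several of these genes.

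The cohorts gave a partial check, since mice were studied in 7 cohorts and only 4 held strains of both classes. The class difference in Fasn was 1.97 in cohort 1 (C57BL/6J and PWK/PhJ against CAST/EiJ), 0.30 in cohort 2 (C57BL/6J and PWK/PhJ against A/J), 1.68 in cohort 3 (129S1/SvImJ against A/J and CAST/EiJ) and -0.13 in cohort 5 (129S1/SvImJ against DBA/2J). Fdps gave 3.59, 1.31, 2.17 and -0.61, and Nsdhl 1.18, 0.42, 0.51 and -0.09. In cohort 5 the sign turned for all 3 genes, as it did for Acly (-0.72), which turned in cohort 2 too (-0.17). Me1 (2.53, 0.62, 1.08 and 0.65) and Mvk (0.28, 0.38, 0.35 and 0.27) kept their sign in all 4. WSB/EiJ shared no cohort with another strain, so for it cohort and strain cannot be told apart. With cohort as a term and without WSB/EiJ, the mouse-level test called 2230 genes higher and 2409 lower.

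The regulators of these pathways did not separate. Srebf2, the transcription factor that drives cholesterol synthesis, differed by 0.10 ± 0.15 (log2, SE), and Srebf1, its counterpart for fatty acid synthesis, by 0.19 ± 0.39. Nr1h3, which encodes the oxysterol receptor LXRα, differed by 0.04 ± 0.10, and Mlxipl, which encodes the glucose-responsive factor ChREBP, by -0.26 ± 0.17. Other enzymes had higher means without separating, among them Scd1, the stearoyl-CoA desaturase (1.08 ± 0.69), and Hmgcs1, which commits acetyl units to cholesterol (1.15 ± 0.57). No gene of the lists for lipid droplets (23 tested) or bile acids (21 tested) was separated. At the 5.2% separated over all genes, lists this short would hold few or none.

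**Figure D3:**
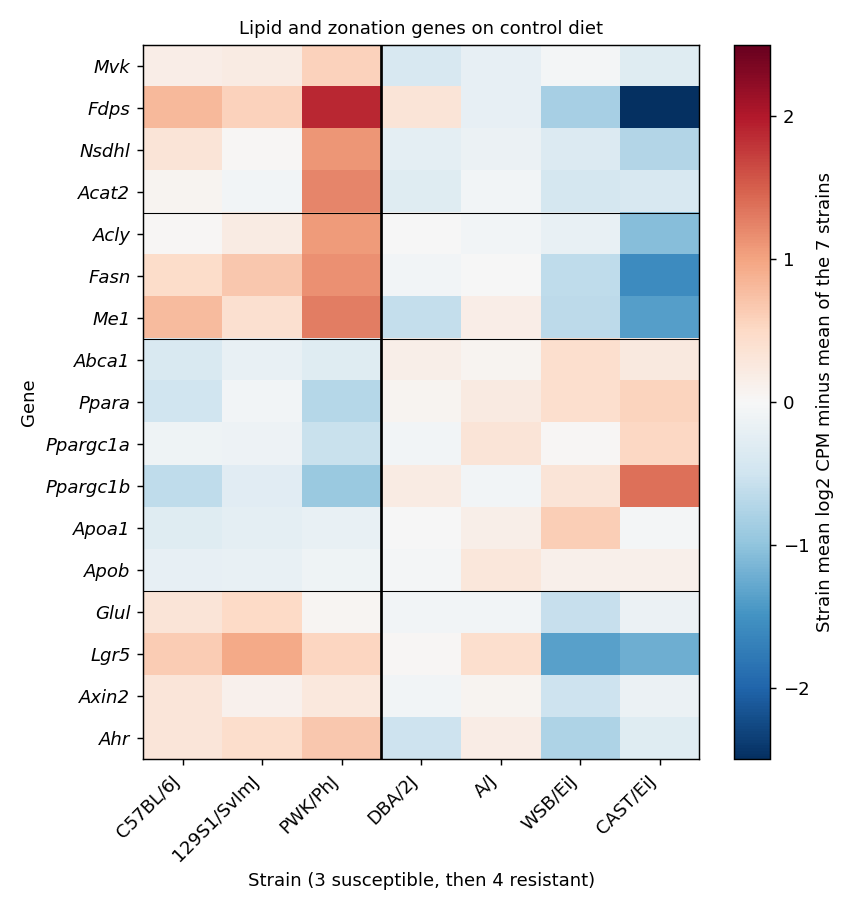
Strain means of 17 separated lipid and zonation genes on CD, each as log2 CPM minus the mean of the 7 strains, shown by colour from blue (lower) to red (higher), with genes in rows and strains in columns. The vertical line parts the 3 susceptible strains (left) from the 4 resistant strains, and Fdps shows the widest range, from PWK/PhJ (17.8 CPM) to CAST/EiJ (0.708 CPM).

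Ppara and its coactivators had lower means in the susceptible strains. Ppara, which encodes the receptor that turns on fatty acid oxidation, was at 49.1 to 76.2 CPM in the susceptible strain means and 89.2 to 122 CPM in the resistant ones (difference -0.75 ± 0.18). Its coactivators Ppargc1a (8.36 to 11.1 CPM against 11.5 to 19.1 CPM) and Ppargc1b (3.36 to 5.1 CPM against 6.02 to 16.8 CPM) were separated lower as well. Cyp4a32, of the family of fatty acid ω-hydroxylases that PPARα induces, was at 29.7 to 116 CPM against 264 to 521 CPM (difference -2.60 ± 0.42). The Cyp4a family did not differ as one. Of the 6 members listed, 3 had a higher and 3 a lower mean, with Cyp4a31 at 1.72, Cyp4a14 at 1.27 and Cyp4a10 at -0.19, and only Cyp4a32 separated. How reads were divided among these members was not tested. The fasting hormone gene Fgf21, another PPARα target, had a higher mean (1.28). Single mice overlapped, from 10.4 to 166 CPM and from 76.3 to 868 CPM for Cyp4a32. Of the 27 genes of fatty acid oxidation and ketogenesis only Ppara and Ppargc1a were separated (7.41%, against 5.2% of all genes), Ppargc1a not without the 3 C57BL/6J mice. The median difference over the list was -0.04. Of 20 lipoprotein genes 2 (10%, against 5.2% of all genes) were separated, Apoa1 and Apob, the backbone proteins of high-density and of very-low-density lipoprotein. Both were lower, by 0.42 and 0.28 on the log2 scale (SE 0.31 and 0.21). In cohort 5 the Ppara difference was 0.35, against -0.56 to -0.77 in the other 3 cohorts.

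The respiratory chain did not separate the classes. Of 77 nuclear genes for its subunits 1 (1.3%, against 5.2% of all genes) was separated, Cox5a (-0.10 ± 0.08), and the median difference was -0.02. None of the 13 mitochondrial genes was separated. Twnk, the helicase of mitochondrial DNA replication, was separated lower (22.6 to 23.3 CPM against 27.5 to 30.8 CPM), with a difference of -0.36 ± 0.09.

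Mt1, the metallothionein that binds zinc and copper, was at 23.3 ± 23.4 CPM in C57BL/6J (SD, n = 8), 15.3 ± 6.87 CPM in 129S1/SvImJ (n = 7) and 15.6 ± 6.56 CPM in PWK/PhJ (n = 6). In the resistant strains it was at 42.2 ± 23.2 CPM in DBA/2J (n = 6), 58 ± 23.1 CPM in A/J (n = 5), 391 ± 220 CPM in WSB/EiJ (n = 6) and 264 ± 291 CPM in CAST/EiJ (n = 7). The 5 C57BL/6J mice other than the 3 that stood apart averaged 10.1 ± 2.69 CPM (SD). Mice of the 2 classes overlapped (6.97 to 72.8 CPM and 9.68 to 752 CPM), and the difference was -2.69 ± 0.72. Slc39a14, which carries zinc and manganese into hepatocytes, was at 193 to 230 CPM against 317 to 496 CPM (difference -0.82 ± 0.17). The Mt1 difference was negative in all 4 cohorts compared, from -0.85 to -2.38. Slc30a1, which carries zinc out of cells and was picked out here after its value was seen, differed by -0.66 ± 0.17 with a gap of 0.35. Mt2, the neighbour of Mt1, differed by -2.48 ± 1.22 and was not separated.

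The promoters of Mt1 and Slc30a1 are printed because zinc induces both genes through the metal response element bound by MTF1. Each window runs from 250 bases before to 50 bases after the RefSeq start in GRCm38.p6, 5′ to 3′ on the plus strand, at chr8:94178839-94179138 for Mt1 and chr1:191906531-191906830 for Slc30a1. Capitals mark matches to the letters TGCACNC or TGCGCNC on either strand, 3 for Mt1 and 2 for Slc30a1. Of 32851 windows of this length in the same table, 25.7% hold at least 1 match, 7.11% at least 2 and 1.97% at least 3. A match is a description of the letters, not evidence of binding.
Mt1: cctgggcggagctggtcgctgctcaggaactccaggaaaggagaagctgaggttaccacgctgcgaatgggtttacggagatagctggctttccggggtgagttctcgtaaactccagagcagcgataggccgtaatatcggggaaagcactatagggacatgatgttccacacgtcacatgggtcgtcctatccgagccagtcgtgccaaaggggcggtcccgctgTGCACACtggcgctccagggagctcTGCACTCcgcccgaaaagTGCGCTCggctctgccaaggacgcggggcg
Slc30a1: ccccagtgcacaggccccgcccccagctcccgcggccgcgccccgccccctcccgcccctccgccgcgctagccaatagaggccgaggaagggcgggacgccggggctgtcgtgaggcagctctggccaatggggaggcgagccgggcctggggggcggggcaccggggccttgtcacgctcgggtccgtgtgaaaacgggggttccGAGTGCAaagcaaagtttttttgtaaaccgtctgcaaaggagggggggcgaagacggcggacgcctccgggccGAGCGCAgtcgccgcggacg

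Most complement genes had lower means in the susceptible strains, while acute phase genes went both ways. Of 30 complement genes 5 (16.7%) were separated, all lower, against 2.64% of all genes separated lower. They were C4a, C1rb, C2, Cfi and C4bp. The median difference over the 30 was -0.30, against 0.01 over all genes, and 24 had a lower mean. C1rb, a copy of the C1r protease, showed how unequal the members of a class can be, with 0.0842 and 0.0768 CPM in C57BL/6J and 129S1/SvImJ, 13.1 CPM in PWK/PhJ and 13.2 to 18 CPM in the resistant strains. It counted as separated by a gap of 0.02. Of 26 acute phase genes 4 (15.4%, against 2.64% of all genes) were separated, all lower: Itih4, Serpina3n, Serpina3m and Mt1. Of the 26, 16 had a lower and 10 a higher mean (median -0.22), Lcn2 (0.89) and the hepcidin gene Hamp (1.05) among the higher. Of 33 hepatocyte transcription factors 4 (12.1%, against 2.64% of all genes) were separated lower, namely Prox1, Rxrb, Ppara and the glucocorticoid receptor gene Nr3c1. Of the 33, 30 had a lower mean, with a median difference of -0.25 against 0.01 over all genes. The 9 hepatocyte markers summed to strain means of 113600 to 129800 CPM in the susceptible strains and 125900 to 208400 CPM in the resistant strains, and their part in these counts was not tested. In liver tissue, fewer cells of a type and less RNA per cell cannot be told apart.

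Around the central vein, hepatocytes express genes that depend on Wnt signals. Of 20 pericentral genes 4 (20%) were separated, all higher in the susceptible strains, against 2.56% of all genes separated higher. They were Glul, the glutamine synthetase of the innermost cells, Lgr5 and Axin2, both Wnt targets, and Ahr, the dioxin receptor. Glul was at 650 to 887 CPM against 428 to 611 CPM (difference 0.50 ± 0.18). Lgr5 was at 5.93 to 7.99 CPM against 1.67 to 5.59 CPM. Over the whole list 12 of 20 genes had a higher mean and the median difference was 0.04, so the list did not move as one. None of the 20 periportal genes was separated, against 5.2% of all genes, and 17 of them had a lower mean (median -0.15). In cohort 1 the differences of Glul (-0.23) and Lgr5 (-0.72) had the other sign.

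Detoxification genes split. Of 52 conjugation enzymes, Ugt2b5, Ugt2b34, Ugt2b35 and Gstm5 were separated higher and Ugt3a1 lower (9.62% in all, against 5.2% of all genes). Ugt2b34, Ugt2b35 and Ugt2b5 lie in one span of chromosome 5, from 86889767 to 87140318. Ugt2b35 was at 133 to 183 CPM against 68.7 to 97.5 CPM, and Ugt3a1, which joins sugars to bile acids and drugs, at 17.4 to 34.8 CPM against 58.8 to 88.2 CPM. Slc22a7, a transporter of organic anions, was at 6.84 to 21.8 CPM against 35.5 to 163 CPM (difference -2.97 ± 0.61), 129S1/SvImJ and A/J being the nearest. Asns, the asparagine synthetase induced by amino acid shortage, was at 5.05 to 7.49 CPM against 0.375 to 3.69 CPM, but this rested on the 3 C57BL/6J mice that stood apart (14.7 to 16.3 CPM). The other 5 C57BL/6J mice averaged 2.68 ± 0.984 CPM (SD), below the WSB/EiJ mean, and without the 3 mice neither Asns nor Gstm5 was separated. Rrm2, a subunit of ribonucleotide reductase, was at 7.02 to 9.08 CPM against 1.41 to 5.13 CPM. No NRF2 target (22 tested) was separated, against 5.2% of all genes. The mouse-level test called 13 of them higher and 1 lower, against 27% and 24.3% of all genes.

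The remaining genes with the widest gaps were of mixed function. Igsf23, an immunoglobulin superfamily gene, had 15.7 CPM in 129S1/SvImJ, 3.32 CPM in PWK/PhJ and 0.87 CPM in C57BL/6J, against at most 0.572 CPM in the resistant strains. Rps4l, a retrogene copy of a ribosomal protein, was at 10.1 to 15.9 CPM against 1.36 to 6.19 CPM, and Gas2l3, a cytoskeletal linker, at 5 to 6.16 CPM against 2.67 to 3.12 CPM. Lower genes included Atp6v0e2, a subunit of the vacuolar proton pump (0.598 to 2.2 CPM against 3.49 to 12.7 CPM). Fv1, which restricts retroviruses, was at 0.663 to 1.84 CPM against 2.86 to 4 CPM. Foxq1, a forkhead transcription factor, was at 9.46 to 11.5 CPM against 18.2 to 36.1 CPM. All 6 had strain means apart and single mice that overlapped.

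Lists of inflammation and matrix genes differed in how many members were separated on CD. No collagen gene (21 tested), no TGF-β or activin gene (29 tested) and no chemokine or receptor (31 tested) was separated. Over all genes 5.2% were separated, a share at which lists this short would hold few or none. Of 39 interferon-stimulated genes 1 was separated, Ifih1, although 33 had a higher mean and the median difference was 0.48. The mouse-level test called 26 of these 39 higher and none lower, and of the 31 chemokines and receptors 17 higher and 5 lower. Over all genes the same test called 27% higher and 24.3% lower. Of 12 genes of MHC class II presentation, 11 had a higher mean, 1 was separated (H2-DMb1, which helps load peptides, 1.04), and the mouse-level test called 8 higher and none lower. H2-Ea-ps was not on that list. Of 33 matrix remodelling genes 4 (12.1%, against 5.2% of all genes) were separated, 1 higher (Spp1) and 3 lower (Plod1, Fn1 and Sparc). Spp1, which encodes osteopontin, was separated higher, at 96.6 ± 119 CPM in C57BL/6J (SD, n = 8), 24.1 ± 4.92 CPM in 129S1/SvImJ (n = 7) and 96.2 ± 26.7 CPM in PWK/PhJ (n = 6), against 13.3 to 23 CPM. Spp1 is also a marker of bile duct cells. The 9 cholangiocyte markers, Spp1 included, summed to strain means of 134.8 CPM in C57BL/6J, 117.1 CPM in PWK/PhJ and 42.6 CPM in 129S1/SvImJ, against 43.1 to 44.9 CPM in the resistant strains, and 8 of the 9 had a higher mean. Their part in the Spp1 difference was not tested. Fn1 encodes fibronectin, Plod1 a collagen lysyl hydroxylase and Sparc a matrix glycoprotein. Of the 14 lipid-associated macrophage and monocyte markers only Spp1 was separated. Without the 3 C57BL/6J mice with high macrophage genes, no interferon-stimulated gene was separated. The counts were then 5 of 20 for cholesterol synthesis, 4 of 21 for fatty acid synthesis and 4 of 20 for pericentral genes, all higher, and 5 of 30 for complement and 4 of 26 for acute phase genes, all lower. The Spp1 difference was 1.32 without them and 1.58 with them.

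**Figure D4:**
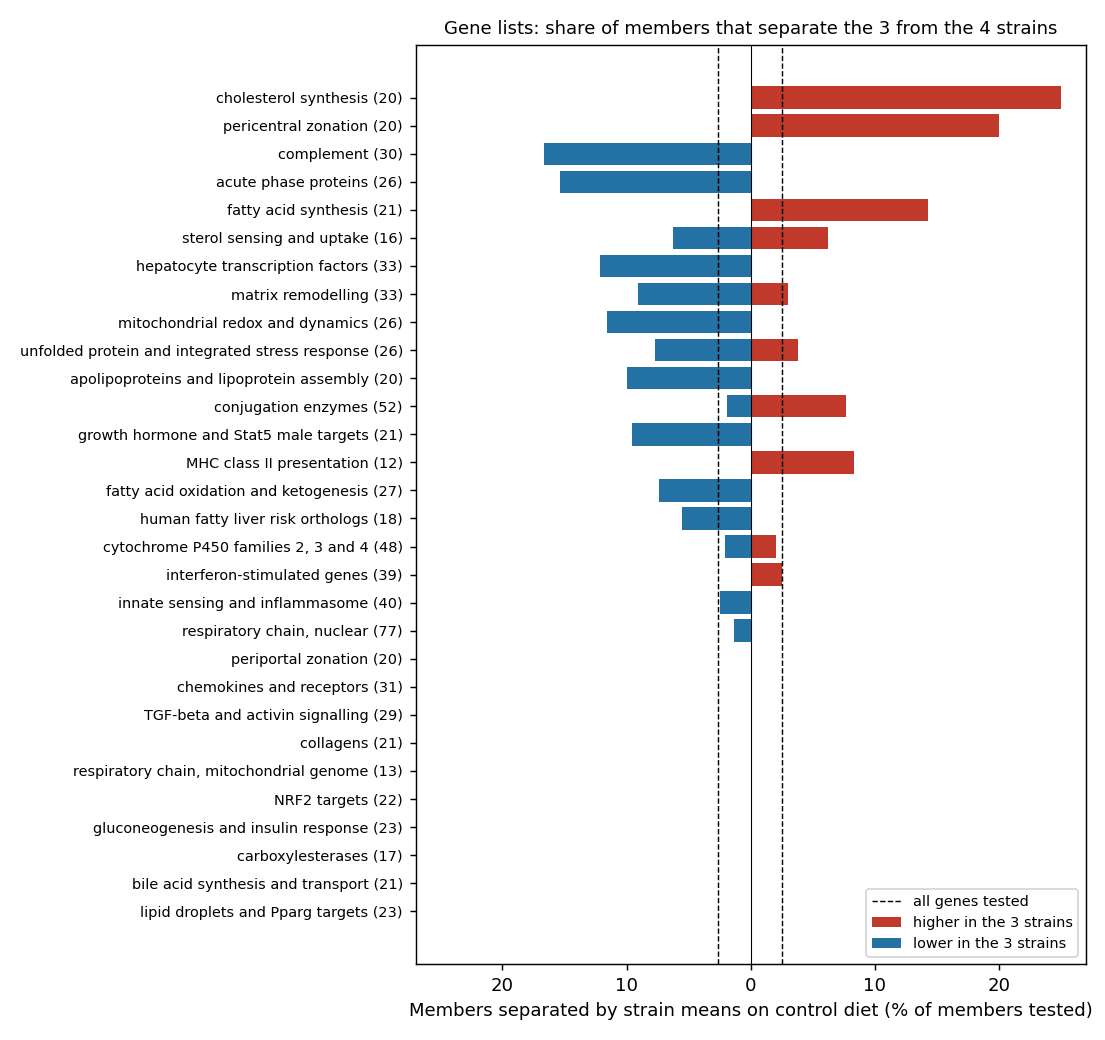
Share of the tested members of each gene list that were separated by strain means on CD, in percent on the horizontal axis, with members higher in the susceptible strains to the right (red) and lower to the left (blue). The number of tested genes stands beside each list name, dashed lines give the shares over all 18003 genes (2.56% and 2.64%), and the longest bars are cholesterol synthesis to the right (25%) and complement to the left (16.7%).

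Genes of the exocrine pancreas were among the lower genes. Of 24 tested genes of pancreatic acinar cells, a list written after the separated genes were seen, 19 were separated lower in the susceptible strains. Their summed level had a median of 16 CPM (4.74 to 116 CPM) in the susceptible mice and 32 CPM (1.72 to 2050 CPM) in the resistant mice. By strain the medians were 6.01 CPM in C57BL/6J, 16.5 CPM in 129S1/SvImJ and 20 CPM in PWK/PhJ. In the resistant strains they were 45.6 CPM in DBA/2J, 23.6 CPM in A/J, 30.9 CPM in WSB/EiJ and 2.36 CPM in CAST/EiJ, the lowest of all. The sum exceeded 100 CPM in 4 resistant mice and 1 susceptible mouse, with highest values of 2050 CPM in DBA/2J, 1800 CPM in WSB/EiJ, 581 CPM in A/J and 302 CPM in CAST/EiJ. With the median over mice in place of the mean, none of the 19 was separated. Without these genes 457 genes were separated lower.

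The last question was whether the differences on CD were also present on WD, in the 48 other mice of the same strains. Of the genes separated on CD, 104 of the 461 higher genes (22.6%) and 163 of the 476 lower genes (34.2%) were separated in the same direction by the WD strain means, and 2 were separated the other way. Over all tested genes, 4.89% were separated higher and 3.35% lower on WD. The difference had the same sign on both diets for 95.6% of the separated genes and 79.2% of all genes. H2-Ea-ps (-8.63 ± 0.35), C4a (-3.27 ± 0.61), Itpripl1 (1.20 ± 0.24), Tmem181a (1.63 ± 0.19) and Isoc2b (2.88 ± 0.72) were separated on both diets. The lipid synthesis genes were not. On WD, Mvk differed by 0.09 ± 0.20, Acly by 0.30 ± 0.38 and Fasn by 0.86 ± 0.48, and 1 of the 20 cholesterol synthesis genes was separated. Ppara stayed separated, with a difference of -0.30 ± 0.09.

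Macrophage and matrix genes were counted as separated on WD more than on CD, a difference that was not tested. On WD, 9 of 14 macrophage and monocyte markers, 13 of 31 chemokines and receptors, 11 of 33 matrix remodelling genes and 5 of 21 collagens were separated higher, against 1, 0, 1 and 0 on CD. Over all genes 4.89% were separated higher on WD and 2.56% on CD. The classes follow the liver steatosis the study saw on WD, so the WD counts are not independent of how the classes were made. Whether the response to WD differed between the classes was tested on the 7 strain differences between diets. No gene passed (0%, limma with Benjamini–Hochberg adjustment), and 1821 genes had an unadjusted p below 0.05. For C4a the class difference in response was 1.08 ± 0.48 (adjusted p = 0.509).

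**Figure D5:**
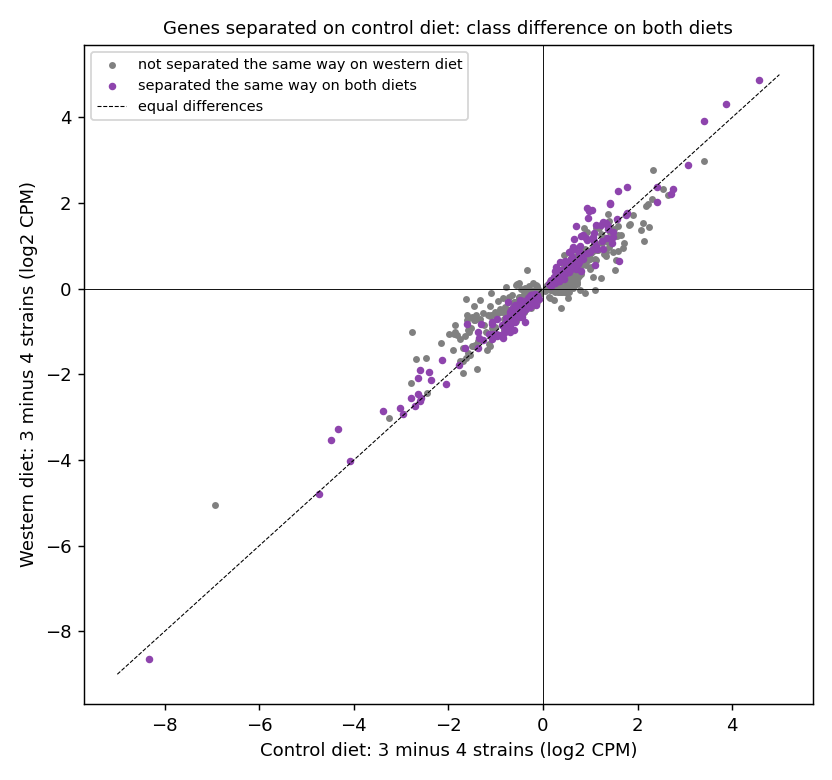
Class difference (mean of the 3 susceptible strain means minus mean of the 4 resistant, log2 CPM) of the 937 genes separated on CD, on CD (horizontal axis) and on WD (vertical axis). Purple points are the 267 genes separated in the same direction on both diets, grey points the others, and the dashed line marks equal differences. H2-Ea-ps is the lowest point, at -8.32 on CD and -8.63 on WD.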

How the data were processed

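Liver RNA of 93 male mice was sequenced from libraries made with the SMARTER kit on a BGISEQ-500, and the 45 CD mice were compared. Per the submitters' processing notes, reads were aligned with STAR 2.7.1a to GRCm38 (mm10). The authors deposited raw read counts per gene. The strand setting and annotation release are not given in the sources used here. Of 53465 listed genes, 53360 were given a symbol from the GENCODE annotation.

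Counts were scaled with edgeR 4.0.16 (TMM, filterByExpr by strain with a minimum count of 10), turned into log2 CPM with a prior count of 2, and averaged per strain, without further filters. CPM means printed beside a strain are means over its mice of the scaled CPM. The 7 strain means were tested with limma 3.58.1 (trend, 3 against 4, Benjamini–Hochberg adjusted p below 0.05). Mice were tested with limma-voom, with 1 mean per strain. DESeq2 1.42.0 and edgeR's quasi-likelihood test served as alternatives. The scripts were tested on simulated data. Mice of a strain are separate animals, and p-values at mouse level measure the spread between them.

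The strain classes follow the liver steatosis the study saw on WD. The members and gene lists were chosen with earlier results of these data known. Named genes were the 12 per direction with the widest gap between classes among named genes of at least 1 log2 CPM, up to 10 per direction that separated every mouse, the separated members of each list with up to 2 of the smallest p, the gene called at strain level, and Nnt and Hc. Slc30a1, Mt2, Srebf1, Srebf2, Nr1h3, Mlxipl, Scd1, Hmgcs1, Gpnmb, Mmp12, Trem2, Col1a1, Lcn2, Hamp, Fgf21, Cyp4a10, Cyp4a14 and Cyp4a31 were named outside that rule, after their values were seen. Promoter sequences came from RefSeq, whose table held Mt1 and Slc30a1. Some members of the lists are not reported here by name.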

Additional observations from a re-analysis of the deposited data

Results flagged for a closer look

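The values in this paragraph stood far from the others of their group of 4 to 10 by Dixon's test, which chance passes in about 1 of 20 groups. In all, 26 gene values and 77 marker sums were examined. Among the 4 resistant strain means, that of H2-Ea-ps in WSB/EiJ was low (3.14 log2 CPM). The summed hepatocyte markers of 1 mouse stood apart in 129S1/SvImJ (137000 CPM, high), C57BL/6J (118000 CPM, low) and CAST/EiJ (112000 CPM, low). For Kupffer cell markers this held for 1 mouse of CAST/EiJ (431 CPM, high) and 1 of PWK/PhJ (151 CPM, low). The sum of lipid-associated macrophage and monocyte markers was low in 1 WSB/EiJ mouse (76 CPM). Neutrophil markers were high in 1 CAST/EiJ mouse (15.3 CPM), and T and NK cell markers in 1 A/J mouse (11.8 CPM). Sinusoidal endothelium markers were low in 1 mouse of C57BL/6J (422 CPM) and 1 of PWK/PhJ (382 CPM), and stellate cell markers in 1 PWK/PhJ mouse (323 CPM). Cholangiocyte markers were high in 1 A/J mouse (57.5 CPM). The part of these mice in the class differences was not tested.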

How the results depend on the processing

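No paired analysis was possible because the labels number no replicates, and mice of different strains are not matched. Under DESeq2 size factors, a prior count of 0.5, medians over mice, and without the 3 C57BL/6J mice (added after seeing the data), the counts of genes called at strain level, separated by strain means, separated in every mouse and separated on both diets stayed within 1.5 times the main counts of 1, 937, 14 and 267. Without a filter on low counts, 1655 genes were separated (1018 higher and 637 lower, against 461 and 476). With at least 10 counts required in every mouse, 0 genes were called at strain level, because H2-Ea-ps was then left out, and 7 separated every mouse. With PWK/PhJ and CAST/EiJ left out, 2762 genes were separated, 110 separated every mouse and 1236 were separated on both diets. Fewer strains meet the condition of separation more easily, and the part of this in the counts was not tested. At strain level 9 genes were then called, against 9 without PWK/PhJ alone and 1 without CAST/EiJ alone. DESeq2's Wald test on summed counts called 95 genes and limma-voom with strain as a random block 99, and the cause was not tested. With cohort as a term and without WSB/EiJ, the mouse-level count was 4639 in place of 9236.

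Leaving out the strains 1 at a time, or single mice of A/J, gave these ranges: 1 to 9 genes were called at strain level (9 without 129S1/SvImJ or without PWK/PhJ), 916 to 2797 were separated, 14 to 88 separated every mouse, 8415 to 9932 were called at mouse level and 263 to 1425 were separated on both diets. Leaving out any one of the 7 strains moved the separated count by over 1.5 times, from 1421 without WSB/EiJ to 2797 without 129S1/SvImJ. With fewer strains the condition of separation is met more easily, so these counts cannot be compared directly with that of all 7 strains. No gene passed the test of the diet response in any of these. Of the named genes, 2 changed sign. The Nnt difference (log2, main value -0.28) ran from -0.483 (without PWK/PhJ) to 0.046 (without C57BL/6J). The mt-Nd2 difference (main value -0.26) ran from -0.545 (without C57BL/6J) to 0.143 (without PWK/PhJ) and was 0.117 without PWK/PhJ and CAST/EiJ. The cholesterol synthesis list held 3 separated genes with at least 10 counts in every mouse, 4 with DESeq2 size factors and 5 in the main comparison, all higher. Without PWK/PhJ and CAST/EiJ it held 5 higher and 2 lower.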
